A study of Mus musculus with 13 samples.

Results

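The respiratory chain genes described here were all genes of the deposited tables whose name starts with mt-, Nduf, Uqcr or Atp5, or with Cox and a digit, together with Sdha, Sdhb, Sdhc, Sdhd and Cycs. The rule used names alone and found 117 of the 21056 genes present in all 4 tables. Of these, 13 are encoded in mitochondrial DNA and 104 in the nucleus, and 3 of the nuclear ones carry pseudogene names (Atp5k-ps2, Atp5l-ps1 and Atp5l2-ps). RNA was sequenced from the brains of male mice in 13 libraries of 4 groups. The mice are taken here to be all Cx3cr1creER/+:R26iDTR/+. The number after Rosa in the genotype labels counts up from library to library, and reading these labels as 1 genotype is an assumption. Mice of this genotype carry a Cre that tamoxifen activates, expressed from Cx3cr1 in microglia and related phagocytes, and a diphtheria toxin receptor that Cre switches on. All received 2 doses of tamoxifen at 7 to 8 weeks of age. After 30 days the depleted mice (DE) received diphtheria toxin at 50 ng/g for 3 days, and the control mice (CON) received normal saline. The groups were tMCAO_DE (toxin and a 60 min transient middle cerebral artery occlusion with a nylon suture, n = 2), tMCAO_CON (saline and the same occlusion, n = 4), sham_DE (toxin and sham surgery, n = 4) and sham_CON (saline and sham surgery, n = 3). The labels place surgery at 6 to 8 weeks, which does not match tamoxifen at 7 to 8 weeks plus 30 days, and both are given here as the labels state them. The sources used here give neither the brain region nor the time after occlusion. The labels do not say that numbered libraries share a litter or day, and p-values measure the spread between these libraries.

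The respiratory chain passes electrons from NADH and succinate through complexes I to IV to oxygen and pumps protons across the inner mitochondrial membrane, and ATP synthase (complex V) uses that gradient to make ATP. Mitochondrial DNA supplies core membrane subunits of complexes I, III, IV and V, transcribed as long polycistronic RNAs that are cut into the separate messages. The other subunits, all 4 subunits of complex II, cytochrome c and the assembly factors are nuclear genes, so the chain is built from 2 genomes. In the brain, respiration covers most of the energy demand of neurons, and loss of blood flow stops it within the ischaemic tissue.

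Library totals ranged from 16239763 to 22080367 counts. The microglial marker Csf1r, a growth factor receptor, was at 6.08 to 8.51 CPM (counts scaled to a common library size by TMM) in tMCAO_DE, against 76.4 to 97.4 CPM in tMCAO_CON, and at 6.10 to 15.97 CPM in sham_DE, against 92.0 to 93.4 CPM in sham_CON. Tmem119, a microglial membrane protein, was at 0.804 to 0.861 CPM in tMCAO_DE, against 13.4 to 17.6 CPM in tMCAO_CON, and at 0.171 to 2.50 CPM in sham_DE, against 16.3 to 18.6 CPM in sham_CON. Some libraries stood apart from their groups. Transcripts of neutrophil markers summed to 27.1 CPM in sham_CON 2 and 27.2 CPM in sham_DE 3, against 0.858 to 11.8 CPM in the other libraries, and Cx3cr1 was at 24.2 CPM in sham_CON 2 and at most 2.09 CPM elsewhere. Those of erythroid markers summed to 29.9 CPM in sham_CON 2, 31.6 CPM in sham_DE 3 and 37.4 CPM in tMCAO_CON 1. In the other libraries the erythroid sum was 0.679 to 12.7 CPM. The astrocyte glutamate transporter Slc1a2 was at 511 CPM in tMCAO_DE 1 and 489 CPM in sham_DE 2, against 2202 to 3104 CPM in the other libraries. For tMCAO_CON 4 the treatment label reads sham surgery while its title and description place it in tMCAO_CON, where it was kept. Gfap, the astrocyte filament protein, was at 646 and 648 CPM in tMCAO_DE, against 667, 790, 1012 and 924 CPM in tMCAO_CON, and at 180, 139, 137 and 150 CPM in sham_DE, against 51.0, 91.4 and 63.4 CPM in sham_CON, so tMCAO_CON 4 (924 CPM) lay within its group and above every sham library. The parts of these features in the results below were not tested. In bulk tissue, fewer cells of a type and less RNA per cell cannot be told apart.

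The mitochondrial genes lie so close together that some messages share bases, which bears on how far their counts are separate measurements. The 2 overlaps of neighbouring genes of the + strand that are longer than 1 base are printed here from the GENCODE transcripts (GRCm38, chrM, + strand, 5′ to 3′), with the shared bases in capitals. The last 60 bases of mt-Atp8 (chrM:7910-7969) and the first 60 of mt-Atp6 (chrM:7927-7986) share 43 bases, and the last 60 of mt-Nd4l (chrM:10114-10173) and the first 60 of mt-Nd4 (chrM:10167-10226) share 7.
mt-Atp8: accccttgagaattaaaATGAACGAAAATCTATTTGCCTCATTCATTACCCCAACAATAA
mt-Atp6: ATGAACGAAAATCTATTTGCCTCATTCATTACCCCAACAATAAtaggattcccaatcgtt
mt-Nd4l: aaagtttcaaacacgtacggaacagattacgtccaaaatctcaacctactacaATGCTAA
mt-Nd4: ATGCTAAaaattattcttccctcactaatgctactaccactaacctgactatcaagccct
In each pair the capitals open with the ATG of the downstream gene and close with the last bases of the upstream one. In addition, mt-Atp6 and mt-Co3 share 1 base, and mt-Nd5 and mt-Nd6 overlap by 14 bases on opposite strands. Because these genes come from shared precursor RNAs, the 13 values are not 13 independent observations of a library.

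The mitochondria-encoded genes took a lower share of all counts in depleted brains. Their share was 8.64% and 8.28% in tMCAO_DE, against 9.03%, 9.08%, 9.18% and 9.86% in tMCAO_CON. It was 8.74%, 7.84%, 8.60% and 7.95% in sham_DE, against 9.85%, 9.58% and 9.69% in sham_CON. All 6 depleted libraries lay below all 7 control libraries in this share of the library total. The shares averaged 8.34% ± 0.379 (SD, n = 6) in depleted and 9.47% ± 0.360 (SD, n = 7) in control libraries. No p is given for a sum over chosen members. Gene by gene in CPM, 0 of the 13 had all 6 depleted libraries below all 7 control libraries, where 2.77% of all genes did. The 104 nuclear members together took 0.733% to 0.774% in tMCAO_DE, against 0.686% to 0.731% in tMCAO_CON, and 0.678% to 0.735% in sham_DE, against 0.657% to 0.731% in sham_CON, so the nuclear share did not overlap within the occluded pair and did within the sham pair. The ratio of mitochondria-encoded to nuclear-encoded counts was 11.2 to 11.3 in tMCAO_DE, against 12.4 to 14.4 in tMCAO_CON, and 10.8 to 12.9 in sham_DE, against 13.5 to 14.8 in sham_CON, with no overlap in either pair. The plot of the 2 shares by library shows this split between the 2 genomes.

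**Figure D1:**
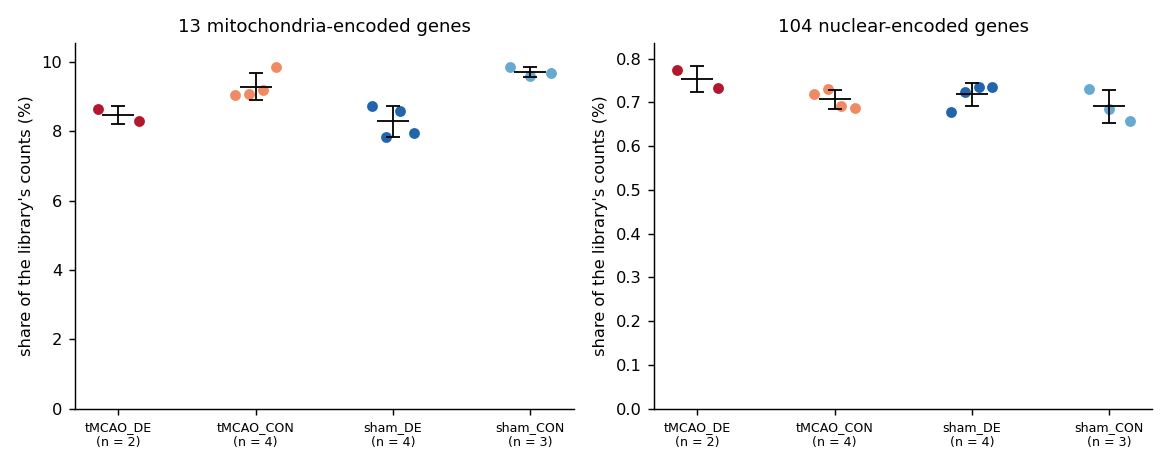
Share of each library's counts in the 13 mitochondria-encoded genes (left) and the 104 nuclear-encoded genes (right), in percent, by group. Points are libraries, and black bars are the mean and SD. In the left panel the 6 depleted libraries sit between 7.84% and 8.74% and the 7 control libraries between 9.03% and 9.86%, while in the right panel all 13 lie between 0.657% and 0.774%.

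Per length of transcript, the mitochondria-encoded genes formed a steep order that was led by the cytochrome c oxidase and ATP synthase genes. Over the 13 libraries mt-Co1, the catalytic subunit of complex IV, had a median level of 17063 CPM per kb (16100 to 19670), and mt-Atp8, a small membrane subunit of ATP synthase, had 16249 CPM per kb (13503 to 18887), so these neighbours in the order overlapped. They were followed by mt-Atp6 at 13169, mt-Co2 at 10941, mt-Co3 at 9035, mt-Cytb at 7407 and mt-Nd4l at 6391 CPM per kb as median levels. The complex I genes mt-Nd1, mt-Nd4, mt-Nd2, mt-Nd5 and mt-Nd3 had median levels of 6252, 5289, 4233, 3471 and 1801 CPM per kb. The lowest was mt-Nd6, the only one of the 13 on the other strand, with a median level of 96.3 CPM per kb (63.0 to 116) from 574 to 1123 counts a library. Among nuclear members the median level was 42.9 CPM per kb, and the highest was Cox8a, a small structural subunit of complex IV, at 552 CPM per kb (428 to 628). On the scale of the authors' FPKM, which uses another gene length, the median level of the nuclear members was 17.8. There Cox8a had a median of 548 and Atp5b one of 134, beside 552 and 480 CPM per kb, so the order of nuclear genes depends on the length used. The lengths behind the deposited FPKM were 1.003 times the transcript length for the mitochondrial genes and 0.820 to 8.21 times for the nuclear ones.

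Microglia depletion without occlusion was accompanied by lower levels of most mitochondria-encoded genes. In sham_DE over sham_CON, 10 of 13 passed the test as lower and none as higher (edgeR quasi-likelihood test on counts, Benjamini-Hochberg adjusted p under 0.05 over 16940 genes), against a background of 4.49% of all genes called lower and 11.3% called in either direction. The median log2 fold change of the 13 was -0.29, beside -0.0035 for all genes tested. In all 13 the sham_DE libraries lay below the sham_CON libraries without overlap, where 10.9% of all genes did so.

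The complex I genes of mitochondrial DNA span the largest and smallest of these differences. For mt-Nd2, a membrane subunit of the proton pump, the levels were 4556, 3739, 4076 and 3540 CPM in sham_DE, against 5295, 4969 and 5299 CPM in sham_CON. Its log2 fold change was -0.38 ± 0.080 (SE, edgeR adjusted p = 0.0127). For mt-Nd1 the levels were 6140, 5158, 5577 and 5153 CPM in sham_DE, against 7144, 6842 and 6791 CPM in sham_CON, with a log2 fold change of -0.33 ± 0.076 (edgeR adjusted p = 0.0186). In both genes sham_DE 1 was the highest depleted library and sham_DE 2 and 4 were the lowest. The overlapping genes mt-Nd4 and mt-Nd4l fell by 0.29 each on the log2 scale (SE 0.074 and 0.071, edgeR adjusted p = 0.0273 and 0.0239). By contrast mt-Nd5 missed the threshold, at 6332, 5488, 6569 and 5828 CPM in sham_DE, against 6690, 6707 and 6701 CPM in sham_CON (log2 fold change -0.15 ± 0.084, edgeR adjusted p = 0.273). The mitochondria-encoded genes with the fewest counts were mt-Nd6 (574 to 1123 a library) and mt-Nd3 (7445 to 16993). The largest difference was that of mt-Nd3 (-0.48 ± 0.15, edgeR adjusted p = 0.0563), and mt-Nd6 had one of -0.37 ± 0.15 (edgeR adjusted p = 0.129). Both had larger errors than the genes above and did not pass.

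The other complexes showed the same direction. The complex III gene mt-Cytb, cytochrome b, was at 8474, 7442, 8378 and 7765 CPM in sham_DE, against 9874, 9515 and 9588 CPM in sham_CON (log2 fold change -0.27 ± 0.063, edgeR adjusted p = 0.0195). In complex IV, mt-Co1 was at 27234, 24874, 26362 and 25050 CPM in sham_DE, against 30391, 29236 and 30332 CPM in sham_CON (log2 fold change -0.21 ± 0.058, edgeR adjusted p = 0.0341). For mt-Co2 the log2 fold change was -0.27 ± 0.073 (edgeR adjusted p = 0.0315), and for mt-Co3 it was -0.25 ± 0.057 (edgeR adjusted p = 0.0191). In complex V, mt-Atp8 and mt-Atp6 fell by 0.30 and 0.25 on the log2 scale (SE 0.073 and 0.068, edgeR adjusted p = 0.0218 and 0.0319).

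These calls rested on few libraries. None of the 13 passed without sham_CON 1 or without sham_CON 3, 1 passed without sham_DE 2 or without sham_DE 4, 4 passed without sham_CON 2, and 9 to 11 passed without any other single library. Calls over all genes fell from 1921 to 611, 591, 747, 670 and 821 in these refits, in the same order. They ran from 1104 to 3725 without any other single library. Without sham_CON 2 and sham_DE 3, the libraries with neutrophil transcripts, 0 of the 13 passed (219 of 16830 among all genes). The median log2 fold change of the 13 was then -0.33. In the refits without a single library the median stayed between -0.34 and -0.25. Of 7 neuronal markers 1 was called lower and none higher, and 3 had positive log2 fold changes. The sum of the 7 (Rbfox3, Syt1, Snap25, Map2, Nefl, Slc17a7 and Gad1) was 9197, 8017, 8563 and 8176 CPM in sham_DE, against 8965, 9217 and 9440 CPM in sham_CON, and among the sham_DE libraries it was highest in sham_DE 1, as were 11 of the 13 mitochondrial genes. Its part in the result was not tested. The sums of the 2 groups overlapped. The marker called was Nefl, a neurofilament subunit (log2 fold change -0.61). The oligodendrocyte marker Mag was called lower (log2 fold change -0.50 ± 0.13, edgeR adjusted p = 0.0256), and its part was not tested either.

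In the occluded brains the 13 genes had fold changes in the same direction, and none passed the test. In tMCAO_DE over tMCAO_CON all 13 log2 fold changes were negative, with a median of -0.11 beside -0.012 for all genes tested, of which 18.6% were called. At an unadjusted p under 0.05 there were 3 of 13, a smaller share than the 5841 of 16940 among all genes. For mt-Nd4 the levels were 6588 and 6274 CPM in tMCAO_DE, against 7287, 7288, 7627 and 8314 CPM in tMCAO_CON (log2 fold change -0.25 ± 0.085, edgeR adjusted p = 0.0596). For mt-Nd2 they were 3899 and 3815 CPM in tMCAO_DE, against 4467, 4309, 4394 and 4941 CPM in tMCAO_CON (log2 fold change -0.23 ± 0.092, edgeR adjusted p = 0.0946). Neither pair of groups overlapped, and 7 of the 13 genes had tMCAO_DE below tMCAO_CON without overlap, where 22.9% of all genes did so. With scaling by library totals alone 3 genes passed, and the DESeq2 Wald test and limma on log2(FPKM + 1) each called 1. Over all genes these settings called 3143, 3685 and 3107. The difference between the depletion effects in occluded and sham brains was itself tested, as the occlusion by depletion interaction, and 0 of the 13 passed (1 at an unadjusted p under 0.05, and 0 by DESeq2), against 0.0472% of all genes (0.0059% higher and 0.0413% lower).

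Averaged over both surgeries, depleted brains had lower mitochondria-encoded levels, with 10 of 13 called lower against 16.2% of all genes. The largest of these falls were those of mt-Nd2 (log2 fold change -0.31 ± 0.061, edgeR adjusted p = 0.00284), mt-Nd4 (-0.27 ± 0.056, edgeR adjusted p = 0.00376), mt-Nd4l (-0.21 ± 0.054, edgeR adjusted p = 0.0106) and mt-Atp8 (-0.21 ± 0.055, edgeR adjusted p = 0.0130). The calls of mt-Nd2, mt-Nd4, mt-Co3 and mt-Cytb held in every refit that left out 1 library. The count was 5 without tMCAO_DE 2 and 7 without tMCAO_DE 1, and 8 to 11 without any other single library. Calls over all genes were 3367, 4110 and 4657 to 6423 in these refits, against 5547 with every library. This average uses the same libraries as the 2 pairs above.

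**Figure D2:**
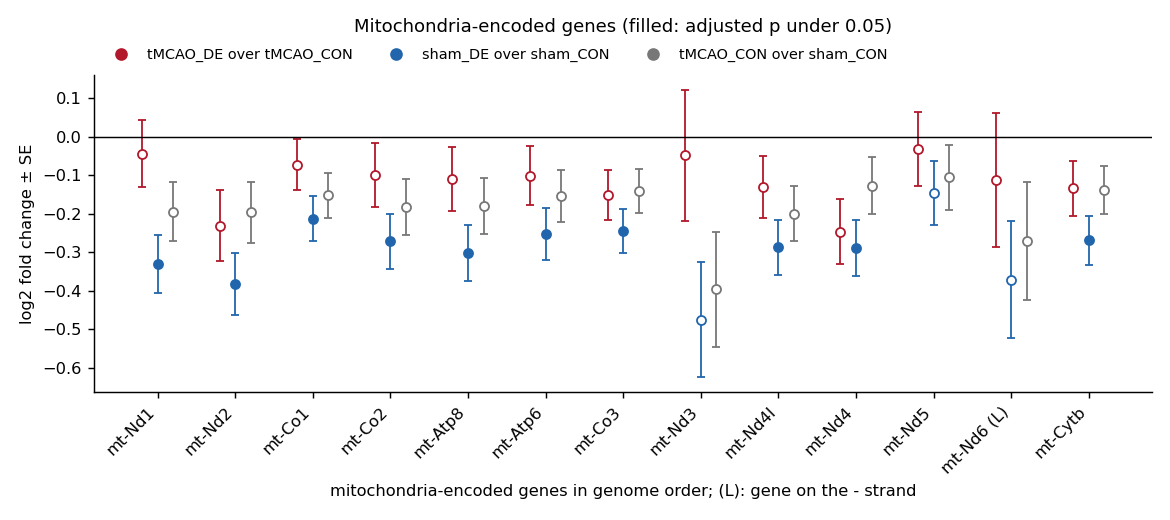
Log2 fold change (± SE) of the 13 mitochondria-encoded genes in genome order, for tMCAO_DE over tMCAO_CON, sham_DE over sham_CON and tMCAO_CON over sham_CON. Filled points passed an adjusted p of 0.05. All 39 values lie below 0, and the 10 filled points all belong to sham_DE over sham_CON.

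Occlusion with microglia present was accompanied by small negative differences that did not pass the test. In tMCAO_CON over sham_CON 0 of 13 mitochondria-encoded genes were called by edgeR, against 8.44% of all genes (3.31% lower). Of the 13, 10 had an unadjusted p under 0.05 (4032 of 16940 among all genes), and DESeq2 called 1 (1992 among all genes). The median log2 fold change was -0.18 beside 0.017 for all genes, and 10 of the 13 had tMCAO_CON below sham_CON without overlap, where 10.5% of all genes did so. For mt-Co1 the levels were 25880, 26043, 26864 and 29193 CPM in tMCAO_CON, against 30391, 29236 and 30332 CPM in sham_CON (log2 fold change -0.15 ± 0.058, edgeR adjusted p = 0.130), and the library closest to sham was tMCAO_CON 4. Without tMCAO_CON 4 the count remained 0. In the depleted brains the median log2 fold change with occlusion (tMCAO_DE over sham_DE) was -0.010, 0 of 13 were called against 12.4% of all genes, and none had an unadjusted p under 0.05 or was called by DESeq2. This comparison shares tMCAO_DE and sham_DE with those above, and each is given with its own values. The occluded and sham tables list different numbers of rows (22160 and 22110), so a difference in how the tables were made cannot be told apart from occlusion.

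Most nuclear members showed small differences. In sham_DE over sham_CON 8 of 101 tested passed, 3 higher and 5 lower, against 6.85% and 4.49% of all genes, with a median log2 fold change of -0.032. The sham_DE libraries lay below the sham_CON libraries without overlap in 12 members, where 10.9% of all genes did so. They lay above the sham_CON libraries without overlap in 10 members, as they did in 2036 of the 16940 genes tested. In tMCAO_DE over tMCAO_CON 7 passed, 5 higher and 2 lower, against 9.36% and 9.26% of all genes, with a median of 0.097. The groups did not overlap in 23 higher and 10 lower, where 22.6% and 22.9% of all genes did not. Averaged over surgeries, 18 passed, 12 higher and 6 lower, a smaller share than the 32.7% of all genes called, of which 16.6% were higher. In that comparison 78 of the 101 lay within 0.2 of 0 on the log2 scale, where 48.0% of all genes did. The 3 members that did not pass the filter on low counts were Cox8b (0 to 3 counts a library), Cox7b2 (1 to 9) and Atp5l-ps1 (0 to 6).

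**Figure D3:**
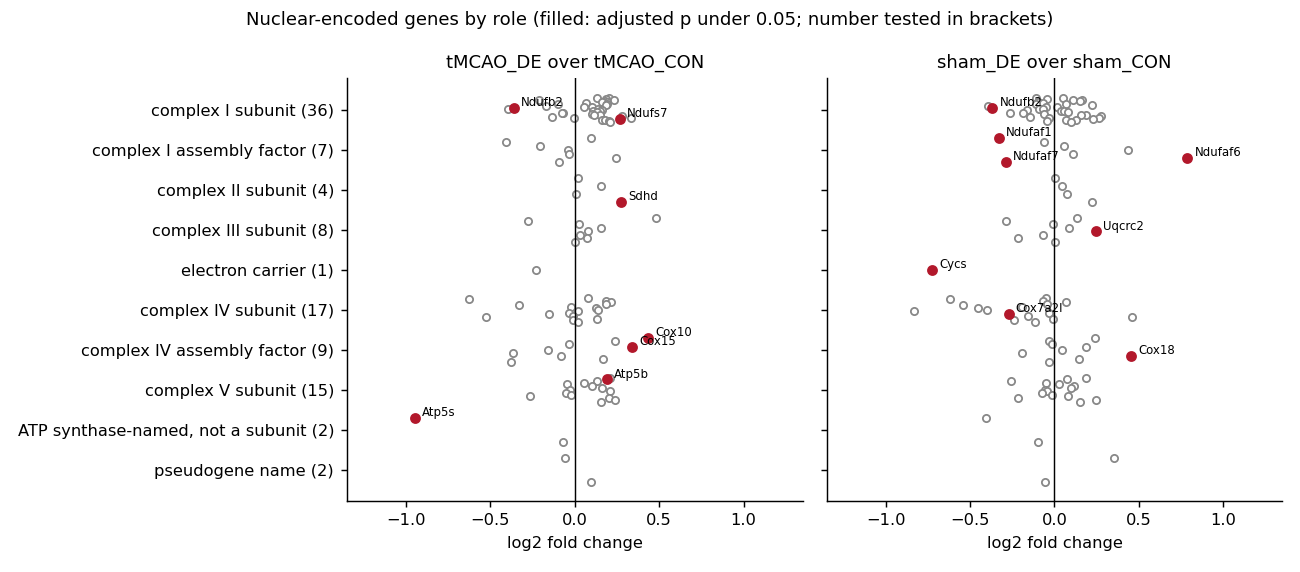
Log2 fold change of the 101 nuclear-encoded genes tested, by role, for tMCAO_DE over tMCAO_CON (left) and sham_DE over sham_CON (right). Each circle is a gene, and filled, named circles passed an adjusted p of 0.05. Only Ndufb2 is filled in both panels.

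Among the nuclear subunits of complex I, some core subunits were higher and a membrane-arm accessory subunit lower in depleted brains. Averaged over surgeries 5 of 36 were called higher (Ndufs3, Ndufs7, Ndufa9, Ndufs1 and Ndufv1) and 2 lower (Ndufb2 and Ndufab1), in each direction a smaller share than the 16.6% and 16.2% of all genes. Ndufs1, Ndufs3, Ndufs7 and Ndufv1 belong to the nuclear core subunits that carry electrons from NADH to ubiquinone, a grouping made after the values were seen. Ndufs3, a core subunit of the peripheral arm, was at 74.1 and 72.7 CPM in tMCAO_DE, against 57.2, 63.3, 59.2 and 62.1 CPM in tMCAO_CON. It was at 60.9, 73.4, 76.4 and 75.6 CPM in sham_DE, against 61.2, 61.6 and 54.8 CPM in sham_CON, with sham_DE 1 at the control level. Its averaged log2 fold change was 0.28 ± 0.063 (edgeR adjusted p = 0.00540), and neither pair alone passed (edgeR adjusted p = 0.0525 in the occluded and 0.0512 in the sham brains).

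Ndufs7, which carries the last iron-sulphur cluster before ubiquinone, was at 52.1 and 45.3 CPM in tMCAO_DE, against 40.3, 40.6, 40.6 and 40.5 CPM in tMCAO_CON (log2 fold change 0.27 ± 0.084, edgeR adjusted p = 0.0425), a call lost in 9 of the 13 refits without a library (edgeR adjusted p up to 0.356). It was at 43.7, 49.7, 49.1 and 49.7 CPM in sham_DE, against 43.8, 38.9 and 40.4 CPM in sham_CON, with an averaged log2 fold change of 0.25 ± 0.056 (edgeR adjusted p = 0.00575). Ndufs1, the subunit with the most iron-sulphur clusters, had an averaged log2 fold change of 0.17 ± 0.050 (edgeR adjusted p = 0.0218), and Ndufv1, which binds NADH, one of 0.15 ± 0.046 (edgeR adjusted p = 0.0218). Ndufv1, named after its values were seen, was one of 2 nuclear members whose 6 depleted libraries all lay above the 7 control libraries (76.3 to 82.1 CPM, against 64.8 to 74.8 CPM), as did 3.32% of all genes. The averaged calls of Ndufs3 and Ndufs7 held in every refit without 1 library, while that of Ndufs1 was lost without sham_CON 3, tMCAO_DE 1 or tMCAO_DE 2 (largest edgeR adjusted p = 0.0792).

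Ndufb2, a small accessory subunit of the membrane arm, was the only nuclear member called lower in both depletion comparisons. It was at 16.9 and 15.8 CPM in tMCAO_DE, against 20.6, 20.9, 22.1 and 20.5 CPM in tMCAO_CON (log2 fold change -0.36 ± 0.11, edgeR adjusted p = 0.0316). It was at 23.1, 19.0, 20.4 and 17.9 CPM in sham_DE, against 27.7, 25.1 and 25.0 CPM in sham_CON (log2 fold change -0.37 ± 0.091, edgeR adjusted p = 0.0242). The groups did not overlap in either pair, and the averaged value of -0.36 ± 0.070 (edgeR adjusted p = 0.00226) held in every refit without 1 library. The occluded call was lost without tMCAO_DE 1, tMCAO_DE 2 or tMCAO_CON 3 (edgeR adjusted p up to 0.221) and the sham call without any of 5 libraries (up to 0.0925). Its exons share bases with Gm42420 on the same strand and with Braf and Gm16272 on the other, and whether counting used strand is not given in the sources used here, so its counts are uncertain to that extent. Ndufab1, the mitochondrial acyl carrier protein that is also a complex I subunit, was lower on average (log2 fold change -0.28 ± 0.092, edgeR adjusted p = 0.0330), and its call was lost without any of 8 libraries (largest edgeR adjusted p = 0.123). The accessory subunit Ndufc2 rose with occlusion in depleted brains, at 38.5 and 40.5 CPM in tMCAO_DE, against 29.4, 24.5, 32.0 and 30.6 CPM in sham_DE (log2 fold change 0.44 ± 0.12, edgeR adjusted p = 0.0331), a call lost without either tMCAO_DE library, sham_DE 1 or sham_DE 2 (edgeR adjusted p up to 0.204).

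Of the 7 complex I assembly factors, Ndufaf6 was higher and Ndufaf1 and Ndufaf7 lower in sham_DE. Among all genes 6.85% were called higher and 4.49% lower in sham_DE over sham_CON. Ndufaf6, a factor for early assembly, was at 4.97, 5.32, 5.67 and 5.70 CPM in sham_DE, against 3.86, 2.99 and 2.54 CPM in sham_CON (log2 fold change 0.79 ± 0.16, edgeR adjusted p = 0.0116). It was at 5.17 and 5.11 CPM in tMCAO_DE, against 4.14, 3.79, 4.88 and 4.56 CPM in tMCAO_CON, a difference that did not pass (log2 fold change 0.25 ± 0.17, edgeR adjusted p = 0.340). All 6 depleted libraries lay above all 7 control libraries. Its sham call was lost without sham_CON 3 (edgeR adjusted p = 0.0566), while its averaged call held in every refit without 1 library. Ndufaf1, a member of the assembly complex of the membrane arm, had a log2 fold change of -0.33 ± 0.097 in sham_DE over sham_CON (edgeR adjusted p = 0.0439), and Ndufaf7, a methyltransferase, one of -0.29 ± 0.085 (edgeR adjusted p = 0.0447). Both calls were lost in 9 of the 13 refits without a library, with adjusted p up to 0.122 and 0.161.

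Complex II has no mitochondria-encoded subunit, and of its 4 genes only Sdhd, which anchors the complex in the membrane and binds ubiquinone, was called. Among all genes 18.6% were called in tMCAO_DE over tMCAO_CON and 32.7% averaged over surgeries. Sdhd was at 87.8 and 83.1 CPM in tMCAO_DE, against 71.8, 74.3, 71.5 and 64.7 CPM in tMCAO_CON (log2 fold change 0.28 ± 0.075, edgeR adjusted p = 0.0238). It was at 71.5, 81.1, 76.6 and 80.7 CPM in sham_DE, against 65.2, 66.6 and 67.6 CPM in sham_CON, which did not pass (log2 fold change 0.22 ± 0.068, edgeR adjusted p = 0.0519), and its averaged log2 fold change was 0.25 ± 0.051 (edgeR adjusted p = 0.00310). The groups did not overlap in either pair. The occluded call was lost without tMCAO_CON 4, tMCAO_DE 1 or tMCAO_DE 2 (edgeR adjusted p up to 0.163), and the averaged call held in every refit. Sdha, the catalytic flavoprotein of the complex, was at 391 and 380 CPM in tMCAO_DE, against 376, 400, 388 and 361 CPM in tMCAO_CON, and at 413, 401, 435 and 383 CPM in sham_DE, against 405, 414 and 404 CPM in sham_CON, so both pairs overlapped (averaged log2 fold change 0.0092 ± 0.043, edgeR adjusted p = 0.888).

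The promoters of these complex II genes are shown because Sdhd was called and Sdha was not, and because the nuclear factor NRF1 is known to bind promoters of many respiratory chain genes. The windows run from 250 bases before to 50 bases after the start of the gene (RefSeq, GRCm38.p6, both on the - strand), Sdha at chr13:74350191-74350490 and Sdhd at chr9:50603800-50604099, 5′ to 3′, with matches to the NRF1 core (GCGCA, any base, GCGC) on either strand in capitals.
Sdha: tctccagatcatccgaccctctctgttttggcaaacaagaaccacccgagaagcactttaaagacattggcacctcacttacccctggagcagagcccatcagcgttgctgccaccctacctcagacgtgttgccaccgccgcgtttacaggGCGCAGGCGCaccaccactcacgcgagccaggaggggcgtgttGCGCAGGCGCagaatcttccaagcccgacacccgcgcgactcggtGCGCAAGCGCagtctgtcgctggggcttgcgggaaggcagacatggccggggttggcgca
Sdhd: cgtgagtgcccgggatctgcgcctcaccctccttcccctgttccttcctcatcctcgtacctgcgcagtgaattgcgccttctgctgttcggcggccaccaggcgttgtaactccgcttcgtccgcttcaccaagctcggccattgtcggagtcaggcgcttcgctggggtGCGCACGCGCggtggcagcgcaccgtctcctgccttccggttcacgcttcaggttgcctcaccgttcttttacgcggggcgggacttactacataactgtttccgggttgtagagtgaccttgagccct
Sdha held 3 matches and Sdhd 1, with no match overlapping another. Of the 101 nuclear members without a pseudogene name, 84 had a promoter in the table, and 18 of them (21.4%) held this motif, where 4.78% of 27025 promoters did. The GABPA core CCGGAAGT was found in 8 of the members' promoters (9.52%) and 1081 of all, and the YY1 core ANATGGCG in 15 (17.9%) and 1038, on either strand, and neither was found in these 2 windows. A match is a run of letters and does not show binding. The messages of 2 of these factors were higher in depleted brains on average, Nrf1 (log2 fold change 0.43, edgeR adjusted p = 0.0151) and Yy1 (0.23, edgeR adjusted p = 0.0260). In this average 16.6% of all genes were called higher. Neither was called in the occluded or the sham pair alone, and Gabpa was not called. A link between these messages and the motifs was not tested.

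In complex III 1 of 8 nuclear subunits passed in the sham brains, where 11.3% of all genes were called (6.85% higher). Uqcrc2, a core protein of the matrix side, was at 178, 189, 199 and 192 CPM in sham_DE, against 158.2, 165.8 and 155.7 CPM in sham_CON, without overlap (log2 fold change 0.24 ± 0.066, edgeR adjusted p = 0.0319), and its call was lost without any 1 of the sham_CON or of sham_DE 2, 3 and 4 (edgeR adjusted p up to 0.110). In the occluded brains Uqcrc2 was at 187.1 and 173.5 CPM in tMCAO_DE, against 184.4, 162.1, 174.8 and 160.5 CPM in tMCAO_CON, with overlap. Uqcrc1, its partner, was at 240 and 217 CPM in tMCAO_DE, against 203, 206, 212 and 198 CPM in tMCAO_CON, without overlap, and its difference did not pass there (log2 fold change 0.16 ± 0.069, edgeR adjusted p = 0.127).

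Cytochrome c itself could not be read from its own row. Cycs had only 104 to 249 counts a library, while Gm10053, a gene annotated as protein coding whose transcript matches that of Cycs at 99.9% over 946 bases, had 1581 to 2907, so 91.4% to 94.6% of the pair's counts stood under Gm10053. The row of Cycs was at 8.76, 5.77, 6.34 and 6.27 CPM in sham_DE, against 13.36, 9.27 and 10.96 CPM in sham_CON (log2 fold change -0.72 ± 0.16, edgeR adjusted p = 0.0167), a call lost without sham_CON 1, sham_CON 3 or sham_DE 2 (edgeR adjusted p up to 0.0775). Summed with Gm10053, it was at 147.7, 106.6, 102.7 and 97.9 CPM in sham_DE, against 155.3, 132.9 and 155.1 CPM in sham_CON, and the smaller difference did not pass (log2 fold change -0.38 ± 0.13, edgeR adjusted p = 0.0672). The sum was at 133.3 and 109.6 CPM in tMCAO_DE, against 158.1, 148.4, 158.7 and 149.0 CPM in tMCAO_CON, without overlap (log2 fold change -0.34 ± 0.14, edgeR adjusted p = 0.116). Averaged over surgeries, the sum was lower in depleted brains (log2 fold change -0.36 ± 0.096, edgeR adjusted p = 0.0128), beside -0.48 ± 0.12 for the row of Cycs alone (edgeR adjusted p = 0.0112), which was lost without tMCAO_DE 2 (edgeR adjusted p = 0.0749). Summing was chosen after the data were seen. In all, 34 of the 104 nuclear and 9 of the 13 mitochondrial members have another annotated transcript of at least 95% identity over 200 bases or more. Copies of mt-Atp6 held 9.51% to 11.4% of the counts of gene and copy together and those of mt-Co3 held 8.91% to 10.5%, and with copies added 10 of 13 mitochondrial genes were again called lower in sham_DE over sham_CON.

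**Figure D4:**
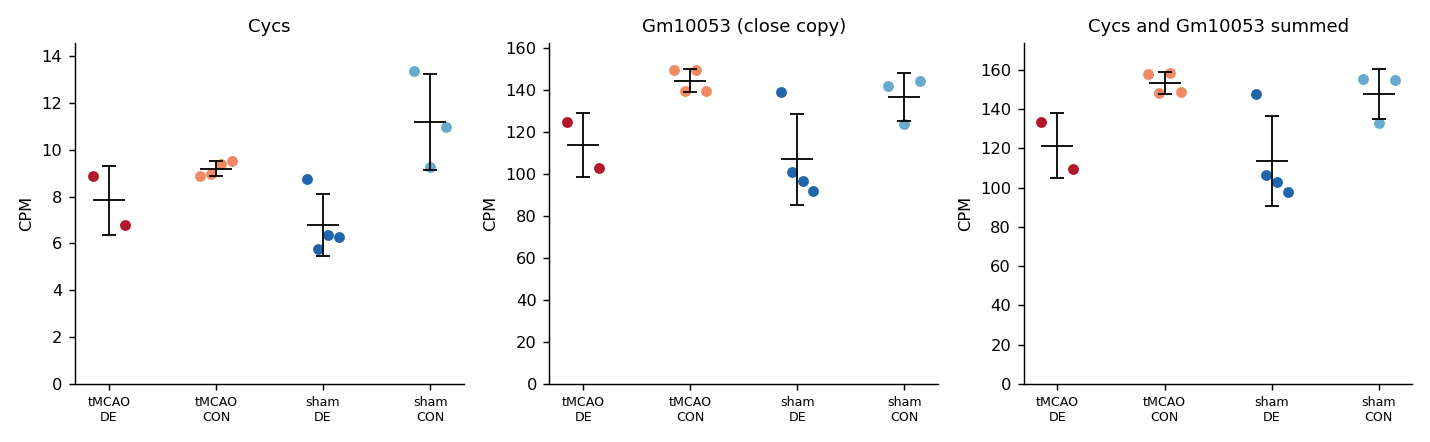
CPM of Cycs (left), of its close copy Gm10053 (middle) and of both summed (right), by group. Points are libraries, and black bars are the mean and SD. Cycs lies between 5.77 and 13.4 CPM and Gm10053 between 91.7 and 149 CPM.

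Most complex IV subunits were not called, while 2 enzymes that make its heme were called higher in tMCAO_DE over tMCAO_CON and not in sham_DE over sham_CON. In tMCAO_DE over tMCAO_CON 9.36% of all genes were called higher. In sham_DE over sham_CON 11.3% of all genes were called in either direction, and averaged over surgeries 32.7% were. Of 17 subunits tested, Cox7a2l, which links complex IV to complex III in supercomplexes, was the only one called. It was at 65.4, 55.5, 64.5 and 60.3 CPM in sham_DE, against 73.7, 75.9 and 72.9 CPM in sham_CON (log2 fold change -0.27 ± 0.065, edgeR adjusted p = 0.0214), a call lost without any of 5 sham libraries (edgeR adjusted p up to 0.0692). It was at 63.7 and 65.5 CPM in tMCAO_DE, against 71.0, 73.5, 71.5 and 71.2 CPM in tMCAO_CON (log2 fold change -0.15 ± 0.074, edgeR adjusted p = 0.164). It was the only nuclear member whose 6 depleted libraries all lay below the 7 control libraries, as did 2.77% of all genes, and its averaged value of -0.21 ± 0.049 (edgeR adjusted p = 0.00637) held in every refit without 1 library.

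The enzymes Cox10 and Cox15 act in sequence to turn heme B into heme A, the cofactor of mt-Co1. Cox10 was at 33.3 and 29.2 CPM in tMCAO_DE, against 25.0, 22.9, 22.1 and 22.4 CPM in tMCAO_CON, without overlap (log2 fold change 0.44 ± 0.10, edgeR adjusted p = 0.0139). It was at 30.3, 32.5, 30.0 and 26.1 CPM in sham_DE, against 27.4, 23.3 and 24.9 CPM in sham_CON (log2 fold change 0.24 ± 0.094, edgeR adjusted p = 0.112). Cox15 was at 40.5 and 38.4 CPM in tMCAO_DE, against 27.1, 34.6, 34.0 and 29.1 CPM in tMCAO_CON, without overlap (log2 fold change 0.34 ± 0.10, edgeR adjusted p = 0.0375), and it was also above the 30.7 to 31.6 CPM of sham_DE (log2 fold change 0.35 ± 0.10, edgeR adjusted p = 0.0433). In the sham brains Cox15 was at 30.8, 30.7, 31.6 and 30.9 CPM in sham_DE, against 27.4, 24.8 and 29.4 CPM in sham_CON, which did not pass (log2 fold change 0.19 ± 0.094, edgeR adjusted p = 0.205). The 2 calls of Cox15 were lost without any of 4 and of 8 libraries, both tMCAO_DE libraries among them (edgeR adjusted p up to 0.191 and 0.232). The averaged call of Cox10 (0.34 ± 0.070, edgeR adjusted p = 0.00347) held in every refit, and its call in the occluded pair was lost without either tMCAO_DE library (edgeR adjusted p up to 0.138). Exons of both genes share bases with others on the opposite strand (9630013K17Rik, and Entpd7 and Cutc), which leaves their counts uncertain to that extent. The same limit holds for the called genes Ndufs3, Ndufs1, Ndufa9, Ndufab1, Uqcrc2, Atp5f1 and Atp5a1, whose exons also overlap genes on the opposite strand. Ndufs3 has in addition a copy, Gm12251, of 98.6% identity over 792 bases. Cox18, which inserts mt-Co2 into the membrane, was at 10.4, 13.05, 10.2 and 12.2 CPM in sham_DE, against 8.58, 8.08 and 8.47 CPM in sham_CON (log2 fold change 0.45 ± 0.12, edgeR adjusted p = 0.0301), and its call was lost without any 1 of 5 sham libraries (edgeR adjusted p up to 0.0905).

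The tissue-restricted forms of complex IV subunits stayed at low levels beside their common partners in every group. Per length, Cox4i2, the lung-type and hypoxia-linked form, averaged 0.760 to 1.30 CPM per kb in the 4 groups, against 287 to 323 CPM per kb for Cox4i1. Cox6a2, the heart and muscle form, averaged 6.56 to 10.2 CPM per kb, against 358 to 407 for Cox6a1. Cox7a1, likewise a heart and muscle form, averaged 0.737 to 1.34 CPM per kb, against 73.1 to 76.8 for Cox7a2, and Cox6b2, the testis form, 0.856 to 1.23, against 135 to 161 for Cox6b1. Ndufa4l2, the hypoxia-induced relative of Ndufa4, averaged 2.44 to 2.69 CPM per kb, against 128 to 151 for Ndufa4. Cox8b, the muscle form, had 0 to 3 counts a library. No member of these pairs was called in any of the 6 comparisons.

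In complex V, Atp5b, the catalytic beta subunit, was at 1011 and 983 CPM in tMCAO_DE, against 891, 865, 874 and 867 CPM in tMCAO_CON, without overlap (log2 fold change 0.19 ± 0.061, edgeR adjusted p = 0.0463). In the sham brains it was at 920, 1010, 981 and 958 CPM in sham_DE, against 977, 899 and 876 CPM in sham_CON, with overlap. The alpha subunit Atp5a1 had an averaged log2 fold change of 0.20 ± 0.062 (edgeR adjusted p = 0.0285), which was lost without any of 8 libraries (edgeR adjusted p up to 0.0915), and the occluded call of Atp5b was lost without any of 10 (edgeR adjusted p up to 0.210). With occlusion, Atp5f1, the stalk subunit b, was the only nuclear member called in tMCAO_CON over sham_CON, where 8.44% of all genes were called (5.14% higher). It was at 181, 177, 187 and 164 CPM in tMCAO_CON, against 154.3, 146.2 and 145.05 CPM in sham_CON (log2 fold change 0.26 ± 0.070, edgeR adjusted p = 0.0402), a call lost without any of 6 libraries (edgeR adjusted p up to 0.142). In tMCAO_DE over sham_DE, 4 of 101 nuclear members passed, Cox15 and Ndufc2 higher against 6.59% of all genes, and Atp5j2 and Atp5s lower against 5.84%. The groups did not overlap in 15 higher and 7 lower, where 19.5% and 17.7% of all genes did not. Atp5j2, the membrane subunit f, was at 39.9 and 50.3 CPM in tMCAO_DE, against 60.7, 62.7, 70.2 and 71.2 CPM in sham_DE (log2 fold change -0.55 ± 0.12, edgeR adjusted p = 0.00998), a call lost without tMCAO_DE 1 (edgeR adjusted p = 0.135).

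Atp5s, named for ATP synthase but not among its structural subunits, had the largest fall of the nuclear members called. It was at 5.78 and 5.62 CPM in tMCAO_DE, against 12.3, 9.88, 10.2 and 11.5 CPM in tMCAO_CON (log2 fold change -0.95 ± 0.17, edgeR adjusted p = 0.00366). It was at 8.33, 7.14, 11.2 and 8.32 CPM in sham_DE, against 11.6, 11.5 and 11.6 CPM in sham_CON (log2 fold change -0.41 ± 0.14, edgeR adjusted p = 0.0754). The groups did not overlap in either pair, and sham_DE 3, a library with neutrophil transcripts, lay nearest to sham_CON. The averaged value was -0.68 ± 0.11 (edgeR adjusted p = 0.000821) and held in every refit, while the occluded call was lost without tMCAO_DE 2 (edgeR adjusted p = 0.0580). It was also lower in tMCAO_DE than in sham_DE (log2 fold change -0.61 ± 0.17, edgeR adjusted p = 0.0302), a call lost without either tMCAO_DE library (edgeR adjusted p up to 0.178).

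**Figure D5:**
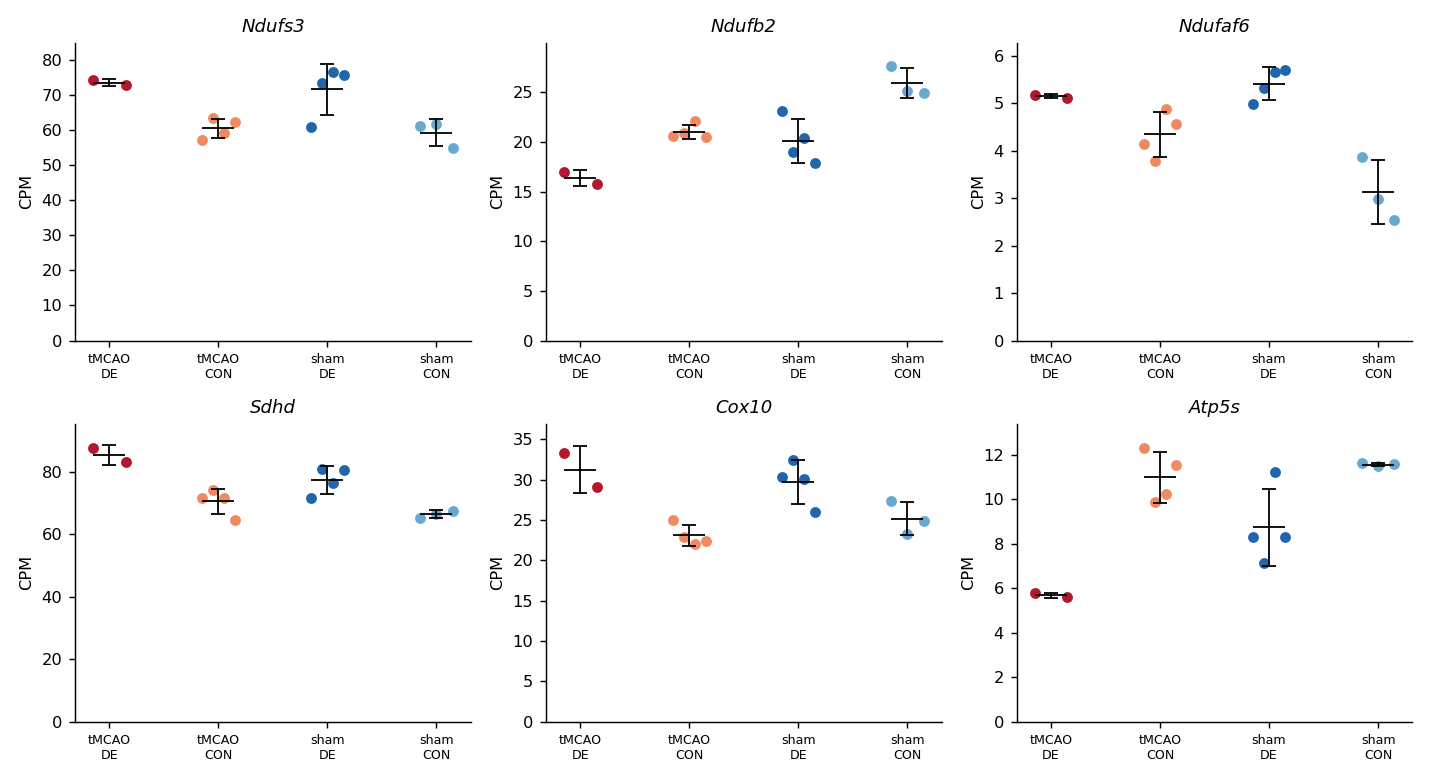
CPM of 6 nuclear-encoded genes by group. Points are libraries, and black bars are the mean and SD. Ndufs3, Ndufaf6, Sdhd and Cox10 have higher means in the depleted groups and Ndufb2 and Atp5s lower ones, each beside its control group, and single sham_DE libraries reach the control range in Ndufs3, Cox10 and, nearly, Atp5s.

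No member passed the test of the occlusion by depletion interaction. Of the 101 nuclear members, 10 had an unadjusted p under 0.05, about the same share as the 1647 of 16940 among all genes, and the smallest adjusted p was 0.333, for Cox7c, a small complex IV subunit named here after its values were seen (edgeR). The depletion effects in occluded and sham brains are therefore not shown to differ for any member, including those called in 1 pair only.

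Genes that act on the chain from outside the rule were sorted into lists written with earlier results of these data known. Averaged over surgeries, 5 of 17 tested genes for transcription and RNA handling in mitochondria were called higher and 1 lower in depleted brains, among them Polrmt, the mitochondrial RNA polymerase (log2 fold change 0.24, edgeR adjusted p = 0.0179), Mtpap, its poly(A) polymerase (0.41, edgeR adjusted p = 0.00155), and Supv3l1, a helicase of RNA decay (0.35, edgeR adjusted p = 0.00421). Of 12 biogenesis regulators 4 were higher, including Ppargc1a (0.25, edgeR adjusted p = 0.00962) and Gabpb1 (0.50, edgeR adjusted p = 0.00372). Of 33 further subunits and assembly factors, 6 were higher and 8 lower, the lowest being Sdhaf4, an assembly factor of complex II (-0.58, edgeR adjusted p = 0.000821). These shares stand beside 16.6% of all genes called higher and 16.2% called lower.

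With occlusion, of 14 genes of mitochondrial stress and mitophagy, 5 were higher and 1 lower in tMCAO_DE over sham_DE, and 4 were higher in tMCAO_CON over sham_CON, including the chaperonins Hspd1 (log2 fold change 0.95 and 0.71) and Hspe1 (1.30 and 0.75). Cytosolic ribosomal protein genes were called higher in 25 of 93 in tMCAO_DE over sham_DE and 16 of 93 in tMCAO_CON over sham_CON, against 6.59% and 5.14% of all genes. Mitochondrial ribosomal protein genes were called higher in 4 and lower in 3 of 77 in tMCAO_DE over sham_DE, and higher in 2 of 77 in tMCAO_CON over sham_CON, smaller shares than the 12.4% and 8.44% of all genes called.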

How the data were processed

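RNA was extracted with RNeasy and sequenced as paired-end TruSeq libraries, per the labels' protocols. The authors deposited 1 table per group with raw read counts and FPKM per gene and library. The submitters' processing notes name Cufflinks 2.1.1, Cuffdiff and mm10, and the sources used here do not give the aligner, the counting program or its strand setting. The deposited FPKM equal the count over the library total and a fixed length per gene. The 25 or 26 rows per table whose names had become dates were left out, and 26 or 27 repeated symbols were summed.

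Counts were tested with edgeR 4.0.16 (R 4.3.3) in 1 quasi-likelihood model of 4 group means over 13 libraries, with TMM scaling and edgeR's filter on low counts (16940 genes kept, 4116 removed), 2-sided, with Benjamini-Hochberg adjustment over all genes kept and a threshold of 0.05. SE was taken from each log2 fold change and its F value. The average depletion effect weights both surgeries equally. CPM use the TMM-scaled library size. CPM per kb divides by the length of the principal GENCODE M21 transcript. Copies were found with blastn 2.17.0+. The fit was tested on simulated counts. Replicates of a group differed by more than sampling noise (chi-square per gene 11.2 or more), so none was counted as the same library.

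Members, lists and the rule for named genes were chosen with earlier results of these data known. Named were all mitochondria-encoded genes, up to 8 rises and 8 falls of nuclear members per comparison, 6 fixed core genes and isoform pairs. Alternatives were other scalings, DESeq2 1.42.0, limma 3.58.1 on log2(FPKM + 1) and log2(FPKM + 0.1), no filter, fewer groups, a replicate block, copies summed and each library left out. Counting limits the precision of low genes such as Cox8b.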

Additional observations from a re-analysis of the deposited data

Results flagged for a closer look

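Of 100 sets of 4 libraries examined (49 named genes and the mitochondrial share, in sham_DE and tMCAO_CON), 4 held a library far from the other 3 by Dixon's criterion, where chance gives about 1 in 20. All 4 were in sham_DE. Cox4i2 was at 1.08 CPM in sham_DE 1, against 0.427 to 0.5001 CPM in the other 3 sham_DE libraries. Ndufs7 was at 43.7 CPM in sham_DE 1, against 49.1 to 49.7 CPM in the others. Ndufab1 was at 17.5 CPM in sham_DE 1, against 13.35 to 14.05 CPM in the others. Cox7a2 was at 43.6 CPM in sham_DE 2, against 49.4 to 49.9 CPM in the others. The library sham_DE 1 was also the nearest to sham_CON in Ndufs3, Ndufb2 and 11 of the 13 mitochondria-encoded genes, and its level of the microglial marker Csf1r was 7.57 CPM, within the 6.10 to 15.97 CPM of its group.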

How the results depend on the processing

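The share of counts in mitochondria-encoded genes differed by -1.43 percentage points in sham_DE minus sham_CON (-1.58 to -1.28 without 1 library), -0.825 in tMCAO_DE minus tMCAO_CON (-1.003 to -0.636), 0.182 in tMCAO_DE minus sham_DE (0.00331 to 0.360) and -0.419 in tMCAO_CON minus sham_CON (-0.609 to -0.335). Leaving out 1 library at a time, counts of calls among mitochondria-encoded genes ran from 0 to 11 in sham_DE over sham_CON, 0 to 2 in tMCAO_DE over tMCAO_CON, 5 to 11 for the averaged depletion and 0 to 0 in the other 3 comparisons. Among nuclear genes they ran from 0 to 17 in sham_DE over sham_CON, 0 to 8 in tMCAO_DE over tMCAO_CON, 0 to 4 in tMCAO_DE over sham_DE, 0 to 3 in tMCAO_CON over sham_CON, 11 to 23 for the averaged depletion and 0 to 0 for the interaction. Over all genes the same refits called 591 to 3725 in sham_DE over sham_CON and 346 to 3873 in tMCAO_DE over tMCAO_CON. They called 453 to 2096 in tMCAO_DE over sham_DE and 564 to 1814 in tMCAO_CON over sham_CON. For the averaged depletion they called 3367 to 6423, and for the interaction 1 to 15. The count of mitochondria-encoded calls in sham_DE over sham_CON, 10, was 5 and 3 with limma on log2(FPKM + 1) and log2(FPKM + 0.1), 4 with only the groups compared, 3 with the replicate block and 0 without sham_CON 2 and sham_DE 3 together. In tMCAO_DE over tMCAO_CON it was 3 with library totals alone and 1 each with DESeq2 and limma on log2(FPKM + 1), and in tMCAO_CON over sham_CON 1 with DESeq2. Nuclear calls in sham_DE over sham_CON, 8, were 13 with DESeq2, 1 with only the groups compared, 2 with the replicate block and 0 without the 2 libraries together. In tMCAO_DE over tMCAO_CON, 7, they were 3 with library totals alone, 4 with only the groups compared, 3 with the block and 4 without the 2 libraries. In tMCAO_DE over sham_DE, 4, they were 2 with only the groups compared, 1 with the block and 2 without the 2 libraries. In tMCAO_CON over sham_CON, 1, they were 3 with RLE factors, 5 with library totals alone, 2 with nuclear-gene scaling, 5 with DESeq2, 5 with either limma fit, 0 without a filter, 3 with only the groups compared, 0 with the block and 0 without the 2 libraries. The cause of these changes was not tested. Leaving out a library changes both the number of libraries and which ones remain. Library totals alone moved the median of all genes in tMCAO_CON over sham_CON to 0.11 and the split of all calls to 1463 higher and 274 lower, against 870 and 560. Same-numbered libraries correlated at -0.079 to 0.11 in their deviations from group means (16 pairs), and other pairs at -0.15 to 0.16. Deviations from a group mean constrain each other, most of all in tMCAO_DE (n = 2). These values therefore cannot decide whether the numbers pair libraries. The labels state no pairing, and the main fit used none. Of 57 called values of named genes, 1341 refits kept the call in 1040 and lost it in 301, none reversed, and of 231 values not called, 5459 refits gained a call in 70. A value not called changed sign in 278.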

Other observations

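Ndufaf4, an assembly factor of complex I, stood at 2 separate levels that did not follow the groups, a pattern noticed after its values were seen. It was at 34.3 CPM in tMCAO_DE 1 and 8.30 CPM in tMCAO_DE 2. In tMCAO_CON it was at 11.1, 32.7, 13.8 and 29.7 CPM, in sham_DE at 11.6, 33.7, 14.1 and 33.7 CPM, and in sham_CON at 9.55, 28.4 and 13.8 CPM. Thus 6 libraries lay between 28.4 and 34.3 CPM and the other 7 between 8.30 and 14.1 CPM, and no comparison called the gene (edgeR adjusted p of 0.647 or more in the 4 pairs).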
